A study of Mus musculus with 40 samples.

Results

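The 40 cell cycle and proliferation genes described here were chosen by name, as genes that act in the S, G2 and M phases of the division cycle. Each of the 40 matched a single row of a count table of 52636 genes, and all 40 were among the 17079 genes with enough counts to be tested. They were followed in brown adipose tissue, the heat-producing fat of the mouse, from 40 male C57BL/6 mice in 8 groups of 5, one library per mouse. Control mice had been given 40 mg/kg of an anti-ragweed antibody, an isotype control without a mouse target. The rest, called Jag antibody mice here, had received 2 blocking antibodies at 20 mg/kg each, anti-Jag1 and anti-Jag2, whose targets are ligands that activate Notch receptors on neighbouring cells. Tissue of each kind was taken 15 h, 5 d and 7 d after this single injection. At 7 d there was a further group of each kind that had also been injected daily from day 2 with thyroid hormone (T4 at 1 ug/g and T3 at 0.05 ug/g), called hormone below. The mice were 10 to 12 weeks old by one label and 10 to 14 weeks by another. Whether mice without hormone received vehicle injections is not given in the sources used here. The control and Jag antibody groups at 7 d without hormone, and others below, enter several comparisons, so those comparisons share mice. Antibody and hormone reached the whole animal, so neither is specific to brown fat, and bulk tissue mixes all cell types.

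A dividing cell passes through G1, S phase, in which the genome is copied, G2 and mitosis. The transcripts of most genes used in these steps are held down in resting cells and made in waves, with E2F factors acting on S phase genes and the MuvB complex with B-Myb and Foxm1 acting on those of G2 and mitosis. In adult brown fat, mature adipocytes seldom divide, and the cells known to divide include preadipocytes, endothelial cells and macrophages. Thyroid hormone is known as a stimulus of brown fat growth and heat production.

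The libraries held 12217623 to 36511893 counts. The slope of log2 CPM on log2 transcript length, which is low where long transcripts are lost, fell below -0.25 in 4 libraries, control mice 2 and 5 at 5 d and control mice 2 and 4 at 7 d. This limit was set after seeing the slopes, and Jag antibody mouse 7 at 5 d lay just above it at -0.244. Skeletal muscle transcripts varied widely, with the summed level of 8 fibre genes between 0.878 and 176000 CPM (counts scaled to library size) per mouse. Of the 7 brown adipocyte markers, none was at 0 throughout any group, and their summed level was 8240 to 69200 CPM. Nothing in the labels says whether the mice of a group shared a cage or a litter, and the p-values measure the spread between these mice. A gene is said to be called when its adjusted p is under 0.05 (edgeR quasi-likelihood test, Benjamini-Hochberg over all tested genes). Fold changes are given as log2 values with their standard error (SE).

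More of these genes were called with daily hormone than in any other comparison. In control mice at 7 d, 33 of the 40 genes rose with hormone and none fell, against 20.3% of all tested genes called higher and 22.9% called lower. Their median log2 fold change was 2.65, compared with 0.04 over all tested genes. For 32 of the 40, every hormone mouse lay above every mouse without hormone, which was so for 14.6% of all tested genes. Hormone raised 28 of the 40 in Jag antibody mice and lowered none, against 4.29% of all tested genes called higher and 5.21% called lower, with a median log2 fold change of 1.5 compared with -0.04. The groups did not overlap for 14 genes, compared with 5.23% of all tested genes. All 28 were among the 33 called in control mice. The control mice with hormone had the highest group mean of the 8 groups for 33 genes, and 28 genes had their lowest mean in a 7 d group without hormone. In bulk tissue, more dividing cells and more of these transcripts per cell cannot be told apart.

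**Figure D1:**
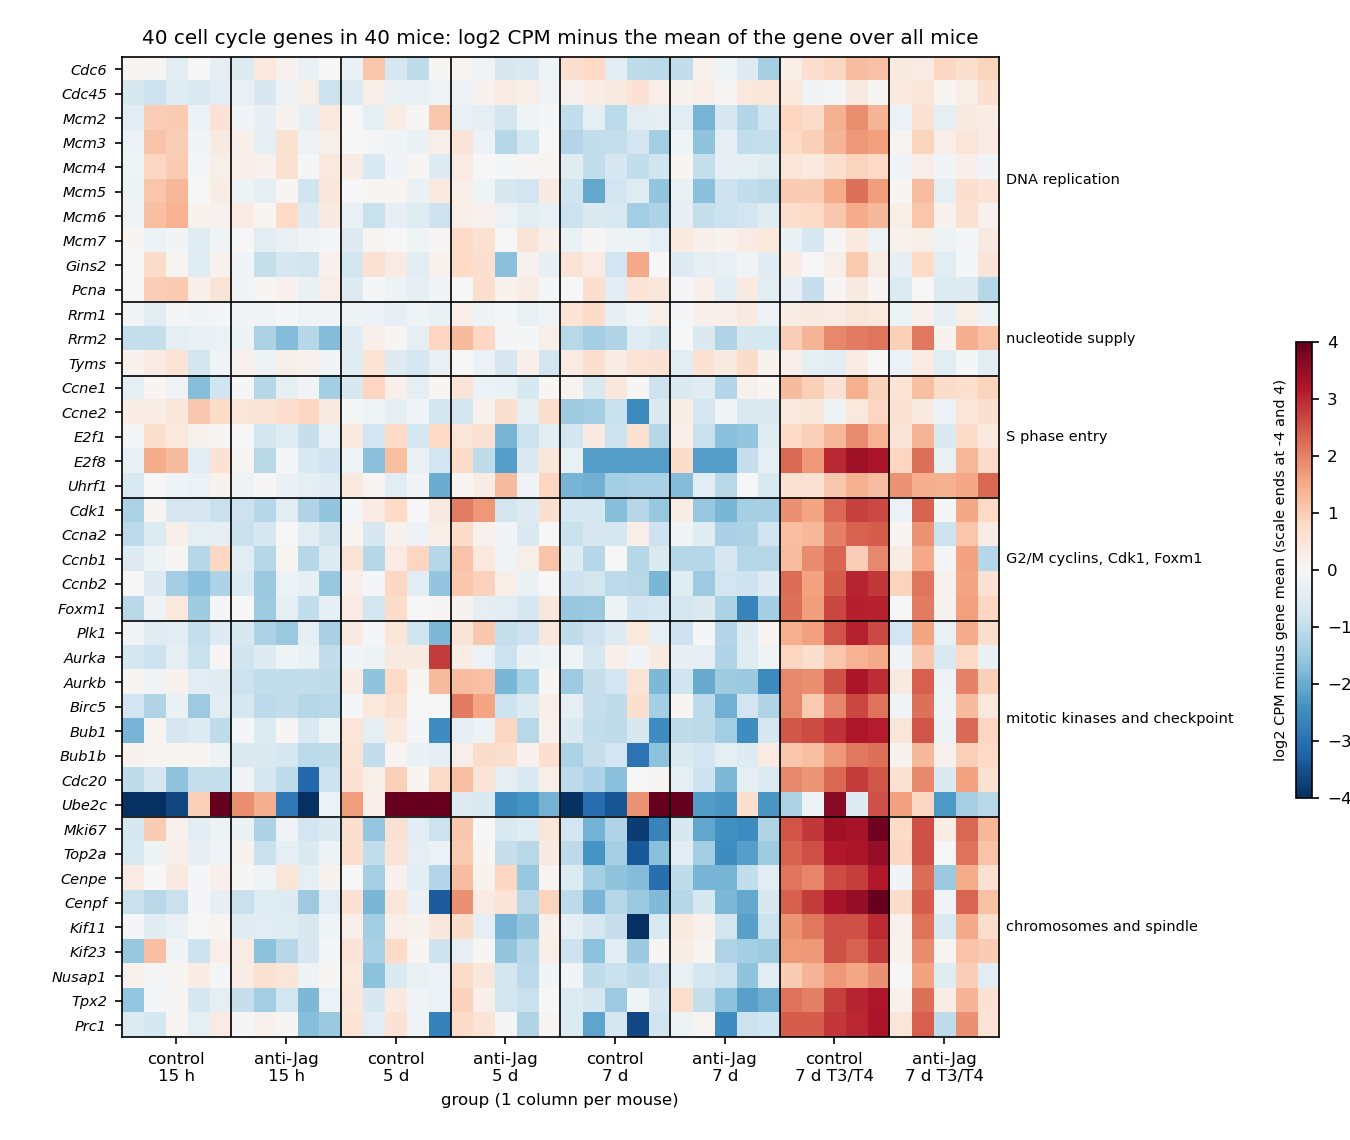
Heat map of the 40 genes (rows, by role) in the 40 mice (columns, by group), coloured by log2 CPM minus the gene's mean over all mice, with the scale cut at -4 and 4. The 5 control mice with hormone are red for most genes and the 5 Jag antibody mice with hormone are mixed. The Ube2c row varies widely within most groups, though every control mouse at 5 d is above every Jag antibody mouse at 5 d.

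The DNA replication genes split in their answer to hormone. Mcm2 to Mcm7 encode the ring-shaped helicase that unwinds DNA, and Mcm2, Mcm3, Mcm4, Mcm5 and Mcm6 rose in control mice while Mcm7 did not. Mcm5 (chromosome 8, 75109569 to 75128439, GRCm38) was at 2.19, 0.878, 2.28, 2.79 and 1.24 CPM in control mice 1 to 5 at 7 d and at 7.92, 7.95, 11.2, 18.3 and 12.6 CPM with hormone. The groups did not overlap, and the log2 fold change was 2.64 (SE 0.36, adjusted p = 2.98e-06, edgeR). Mcm3 rose by 2.43 (SE 0.30), Mcm6 by 2.02 (SE 0.27), Mcm2 by 1.97 (SE 0.31) and Mcm4 by 1.44 (SE 0.21) on the log2 scale. Mcm7 stood at 5.12 ± 0.568 CPM (SD, n = 5) without and 5.52 ± 1.51 CPM (SD, n = 5) with hormone, a difference of 0.11 on the log2 scale (SE 0.17, adjusted p = 0.64, edgeR). Cdc6, which loads the helicase onto origins, rose least of the called genes, by 0.92 (SE 0.38, adjusted p = 0.0456, edgeR), and its groups overlapped.

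The remaining replication genes were not called with hormone. Pcna, the sliding clamp of the replication polymerases, was at 2.35, 3.69, 1.65, 3.42 and 3.20 CPM in control mice at 7 d and at 1.81, 1.16, 2.38, 2.99 and 2.42 CPM with hormone. These ranges overlap, and the log2 fold change was -0.40 (SE 0.26, adjusted p = 0.208, edgeR). Cdc45, a helicase cofactor, gave -0.19 (SE 0.17), and Gins2, a subunit of the complex that joins Cdc45 to the helicase, gave -0.06 (SE 0.37). Among the 10 replication genes, 5 rose in Jag antibody mice, namely Cdc6, Mcm2, Mcm3, Mcm5 and Mcm6, with log2 fold changes from 1.11 for Mcm2 to 1.46 for Mcm5. Mcm4 gave 0.43 (SE 0.21, adjusted p = 0.174, edgeR) there.

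Among the nucleotide supply genes, the subunits of ribonucleotide reductase differed. This enzyme makes the building blocks of DNA from a large subunit, Rrm1, and a small subunit, Rrm2, of which the small one is known to be tied to S phase. Rrm2 was at 0.854, 0.703, 0.798, 1.39 and 1.24 CPM in control mice at 7 d and at 3.98, 5.17, 7.76, 8.63 and 8.98 CPM with hormone. The groups were far apart, with a log2 difference of 2.80 (SE 0.38, adjusted p = 2.74e-06, edgeR). Rrm2 also rose in Jag antibody mice, by 1.95 (SE 0.36, adjusted p = 0.000607, edgeR), from 0.811 to 1.98 CPM without hormone to 2.17 to 8.93 CPM with it. Rrm1 had 40.1 ± 12.9 CPM (SD, n = 5) without and 43.0 ± 2.09 CPM (SD, n = 5) with hormone in control mice, a difference of 0.10 on the log2 scale (SE 0.15). Tyms, which makes thymidylate, gave -0.52 (SE 0.26, adjusted p = 0.0954, edgeR) in control and -0.47 (SE 0.26) in Jag antibody mice.

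All 5 genes of S phase entry rose with hormone in control mice. Ccne1 and Ccne2, the E cyclins that drive the step from G1 into S phase, rose by 1.17 (SE 0.33) and 1.69 (SE 0.30) on the log2 scale, and E2f1, an activating E2F factor, rose by 1.58 (SE 0.44). E2f8, a repressive E2F factor that is itself made in S phase, was nearly absent without hormone: control mice 1 to 5 at 7 d had 5, 0, 0, 0 and 0 counts, compared with 41, 36, 86, 99 and 119 counts with hormone. Its log2 fold change of 5.52 (SE 0.97, adjusted p = 5.94e-05, edgeR) leans on the small number added to each count, so its size is uncertain. The Jag antibody mice had E2f8 at 15, 0, 0, 2 and 5 counts without and 13, 46, 5, 28 and 12 counts with hormone, and it was not called (adjusted p = 0.0807, edgeR).

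Uhrf1, which carries DNA methylation through replication, had higher mean levels under hormone in Jag antibody than in control mice. It was at 0.747, 0.703, 1.08, 1.14 and 1.15 CPM in control mice at 7 d and at 4.59, 4.44, 6.40, 8.07 and 7.05 CPM with hormone. Jag antibody mice 6 to 10 had 0.818, 2.17, 1.33, 2.90 and 1.89 CPM without and 10.6, 8.28, 8.09, 8.80 and 14.9 CPM with hormone. With hormone, the 5 Jag antibody mice all lay above the 5 control mice, which was so for no other member and for 3.97% of all tested genes. The log2 fold change with hormone was 2.66 (SE 0.34) in control and 2.48 (SE 0.33) in Jag antibody mice, and the antibody difference under hormone, 0.73 (SE 0.31, adjusted p = 0.31, edgeR), was not called.

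The genes of G2 and mitotic entry rose together. Cdk1 is the kinase that starts mitosis, Ccna2, Ccnb1 and Ccnb2 are its cyclins, and Foxm1 is a transcription factor for genes of this stage. All 5 were called with hormone in control mice and all 5 in Jag antibody mice. Cdk1 was at 1.23, 1.23, 0.570, 0.886 and 0.670 CPM in control mice at 7 d and at 7.66, 6.41, 10.4, 14.4 and 13.3 CPM with hormone, without overlap, and rose by 3.51 on the log2 scale (SE 0.53, adjusted p = 1.1e-05, edgeR). Ccnb2 rose by 3.87 (SE 0.47), Foxm1 by 3.64 (SE 0.47) and Ccna2 by 2.52 (SE 0.37) on the same scale. Ccnb1 was close to the limit of counting: the control mice had 1, 0, 2, 0 and 1 counts at 7 d and 8, 18, 24, 7 and 20 counts with hormone, and the Jag antibody mice 0, 0, 1, 0 and 0 counts without and 3, 12, 2, 15 and 0 counts with hormone. Ccnb1 was called in both (adjusted p = 0.00132 and 0.00824, edgeR), and no fold is given for such counts.

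Of the mitotic kinases, checkpoint genes and the ubiquitin ligase pair, 7 of 8 rose in control mice and 5 of 8 in Jag antibody mice. Bub1b, a spindle checkpoint protein, was at 1.01, 1.32, 1.48, 0.253 and 0.765 CPM in control mice at 7 d and at 5.60, 6.14, 8.87, 11.6 and 12.4 CPM with hormone. In Jag antibody mice it was at 1.72, 1.5, 1.95, 1.79 and 3.25 CPM without and at 2.89, 6.51, 2.96, 5.06 and 4.57 CPM with hormone. Bub1b rose by 3.17 (SE 0.33, adjusted p = 9.99e-08, edgeR) in control mice, without overlap, and by 1.10 (SE 0.30, adjusted p = 0.0166, edgeR) in Jag antibody mice, with overlap. Bub1, its partner kinase, rose by 4.54 (SE 0.66) and 3.34 (SE 0.63), and Aurkb, the kinase that corrects chromosome attachment, by 3.63 (SE 0.63) and 3.40 (SE 0.63), in control and Jag antibody mice. Birc5, the partner of Aurkb, rose by 2.63 (SE 0.53) and 2.00 (SE 0.51), and Cdc20, which directs the ligase that ends metaphase, by 3.15 (SE 0.51) and 2.02 (SE 0.50). Plk1 and Aurka, kinases of spindle assembly, rose in control mice by 3.10 (SE 0.53) and 1.22 (SE 0.42) and gave 1.47 (SE 0.51) and 0.83 (SE 0.42) in Jag antibody mice, where neither was called.

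The 9 genes of chromosomes and the spindle had the largest median of the 6 role groups with hormone in control mice. In Jag antibody mice the median of the G2 group was higher, at 2.22. In control mice the 9 log2 fold changes ran from 2.33 for Nusap1 to 5.11 for Cenpf with a median of 4.16, and in Jag antibody mice from 1.37 for Nusap1 to 3.35 for Mki67 with a median of 2.05. Mki67 (chromosome 7, 135689784 to 135716361), which encodes the Ki-67 protein used as a marker of dividing cells, was at 2.77, 1.23, 1.99, 0.253 and 0.670 CPM in control mice at 7 d and at 27.6, 34.7, 50.7, 48.0 and 72.6 CPM with hormone. The lowest hormone mouse was far above the highest mouse without hormone, and the rise was 32.5-fold, or 5.02 on the log2 scale (SE 0.57, adjusted p = 4.43e-07, edgeR). In Jag antibody mice 6 to 10, Mki67 was at 3.02, 1.06, 0.811, 0.759 and 2.04 CPM without and at 8.40, 28.8, 5.82, 23.9 and 12.0 CPM with hormone, a difference of 3.35 on the log2 scale (SE 0.52, adjusted p = 7.88e-05, edgeR).

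Top2a (chromosome 11, 98992943 to 99024189) is the topoisomerase that untangles sister chromosomes. It was at 1.65, 0.615, 1.37, 0.253 and 1.05 CPM in control mice at 7 d and at 18.6, 21.7, 33.2, 35.1 and 41.3 CPM with hormone, a difference of 4.85 on the log2 scale (SE 0.51, adjusted p = 1.57e-07, edgeR). Jag antibody mice 6 to 10 had 2.63, 1.34, 0.553, 0.690 and 1.26 CPM without and 6.38, 21.4, 3.49, 16.5 and 7.99 CPM with hormone, a log2 fold change of 3.10 (SE 0.47). Cenpe and Cenpf, proteins of the kinetochore, rose by 4.37 (SE 0.59) and 5.11 (SE 0.65) in control mice. Prc1, which bundles the central spindle, rose by 4.16 (SE 0.64), the motor proteins Kif11 and Kif23 by 3.48 (SE 0.55) and 3.10 (SE 0.54), and the spindle factor Tpx2 by 3.50 (SE 0.51).

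**Figure D2:**
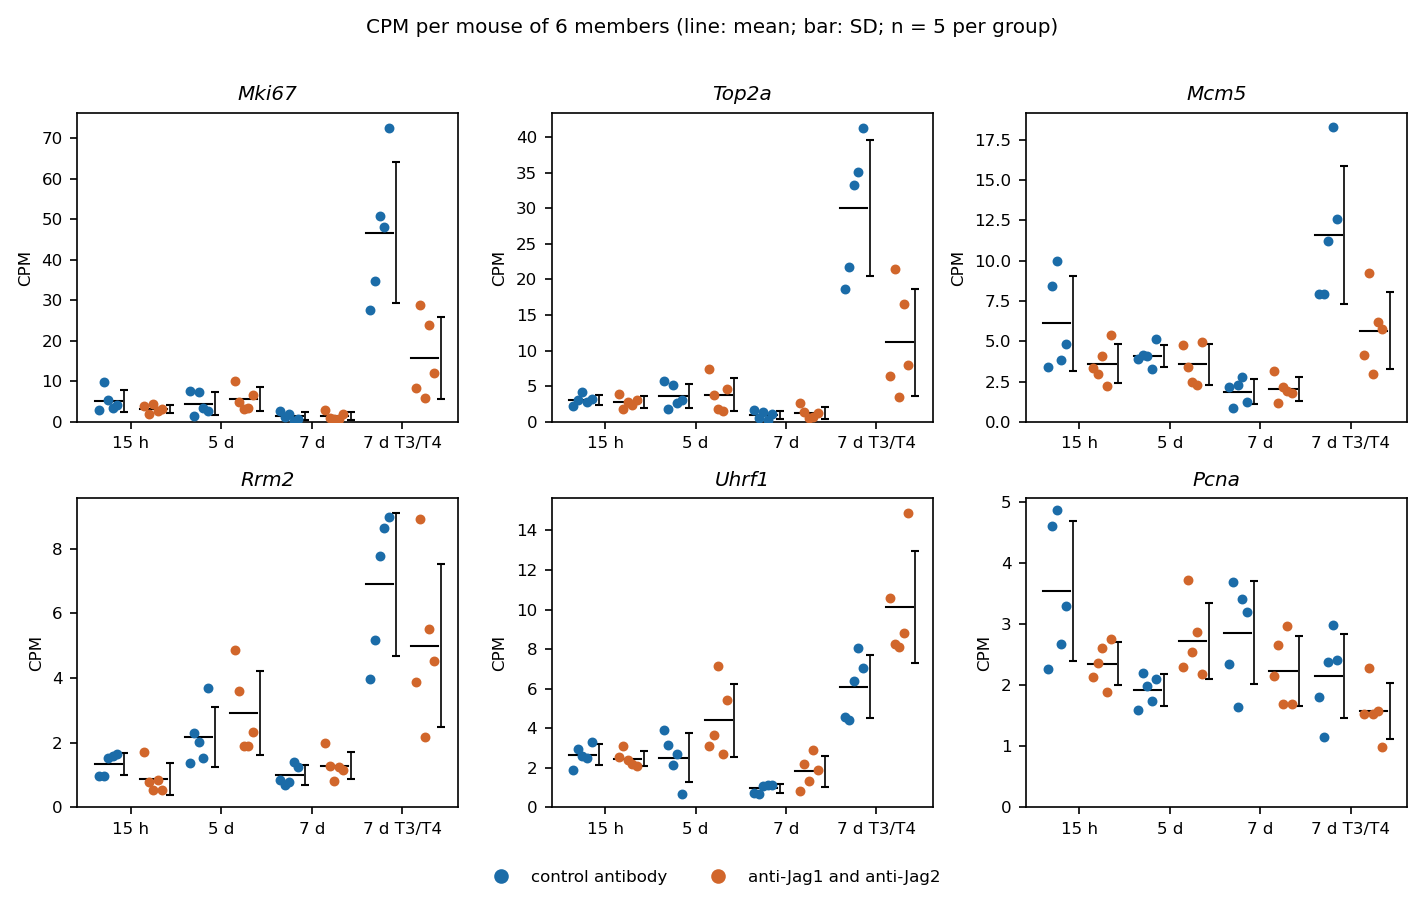
CPM of 6 genes in each mouse (points, linear axes from 0) by collection time and hormone, blue for control antibody and orange for anti-Jag1 and anti-Jag2, with the group mean as a line and the SD as a bar (n = 5). Mki67 and Top2a are high in the control mice with hormone and scattered in the Jag antibody mice with hormone, Uhrf1 is highest in the latter, and the Pcna values with and without hormone overlap.

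The promoters of the 4 genes with the largest rise in control mice, E2f8, Cenpf, Mki67 and Top2a, are shown because this family of promoters is known for a pair of short motifs. These are the CHR element TTTGAA, bound by MuvB complexes, and the CCAAT box, bound by NF-Y. Sequences are RefSeq's on GRCm38.p6, 5′ to 3′ on the strand of the gene, which is the minus strand for all 4. They run from 250 bases before the start of transcription through the 30 bases that follow it, at chr7:48881567-48881846, chr1:189688057-189688336, chr7:135716350-135716629 and chr11:99024160-99024439 in that order. Capitals mark TTTGAA and CCAAT on either strand. None of the exact E2F letters named below was found in these 4 windows, and looser forms of the E2F site were not searched.
E2f8: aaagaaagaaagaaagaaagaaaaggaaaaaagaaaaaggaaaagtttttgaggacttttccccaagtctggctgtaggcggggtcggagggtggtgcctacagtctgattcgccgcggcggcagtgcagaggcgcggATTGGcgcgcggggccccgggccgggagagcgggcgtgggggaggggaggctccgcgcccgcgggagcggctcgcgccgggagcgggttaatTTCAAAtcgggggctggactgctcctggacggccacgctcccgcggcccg
Cenpf: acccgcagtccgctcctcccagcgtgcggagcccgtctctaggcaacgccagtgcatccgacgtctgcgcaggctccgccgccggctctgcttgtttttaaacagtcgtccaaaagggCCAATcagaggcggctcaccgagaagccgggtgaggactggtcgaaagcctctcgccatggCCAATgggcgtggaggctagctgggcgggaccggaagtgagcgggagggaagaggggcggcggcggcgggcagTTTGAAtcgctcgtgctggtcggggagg
Mki67: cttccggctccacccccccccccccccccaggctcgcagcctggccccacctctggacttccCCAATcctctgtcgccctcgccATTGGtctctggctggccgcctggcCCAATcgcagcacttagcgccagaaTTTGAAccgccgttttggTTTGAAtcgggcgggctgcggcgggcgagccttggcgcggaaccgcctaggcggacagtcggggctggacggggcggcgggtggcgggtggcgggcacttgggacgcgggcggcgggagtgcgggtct
Top2a: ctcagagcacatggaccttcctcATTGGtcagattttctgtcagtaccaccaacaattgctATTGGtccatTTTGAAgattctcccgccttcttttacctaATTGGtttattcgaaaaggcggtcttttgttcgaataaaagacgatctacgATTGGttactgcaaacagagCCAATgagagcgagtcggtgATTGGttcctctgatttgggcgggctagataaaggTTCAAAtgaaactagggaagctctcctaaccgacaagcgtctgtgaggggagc

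E2f8 held 1 of each motif, Cenpf 1 CHR and 2 CCAAT motifs, Mki67 2 and 3, and Top2a 2 and 6. In the E2f8 window the CHR letters lay 20 bases before the start and the CCAAT letters 112 bases before it. RefSeq entries were at hand for 33 of the 40 genes, all but Ccne2, Mcm4, Aurkb, Tpx2, Foxm1, Gins2 and Ccna2. The TTTGAA letters were in 13 of these 33 windows (39.4%), compared with 17.4% of 27025 promoters of the same length, and the CCAAT letters in 27 of 33 (81.8%), compared with 36.6%. One of the E2F letters TTTGGCGC, TTTCCCGC, TTTCGCGC and TTTGCCGC was in 6 of 33 (18.2%), compared with 2.16%. All motifs were read on both strands, and no motif contains another. These shares describe cell cycle promoters as a family: CCAAT was in 22 of the 27 windows of genes called with hormone in control mice and in 5 of the 6 windows of genes not called.

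Under hormone, the Jag antibody mice stood below the control mice in nearly all of these genes, though the difference was called for a single member. Log2 fold changes of antibody against control were negative for 37 of 40, with a median of -1.06 compared with -0.02 over all tested genes. Mcm2 alone was called, at -1.13 (SE 0.30, adjusted p = 0.0484, edgeR), against 0.439% of all tested genes called lower and 0.697% called higher. The groups did not overlap for 4 genes that were lower, Mcm2, Mcm4, Rrm1 and Prc1, compared with 2.61% of all tested genes, and for Uhrf1, which was higher, compared with 3.97%. Mcm2 was at 7.01, 6.64, 10.4, 14.2 and 10.1 CPM in control mice with hormone and at 3.27, 5.95, 3.01, 5.02 and 4.79 CPM in Jag antibody mice with hormone, without overlap. At an unadjusted p under 0.05, 28 of the 40 passed, compared with 2026 of the 17079 tested genes. The number called depended on the method: DESeq2 called 12 lower (1.2% of all tested genes), limma on log2(FPKM + 1) called 23 lower (1.65%) and Uhrf1 higher, and RLE size factors called none. It rose from 1 to 8 when Jag antibody mouse 7 was left out, and leaving out any of 7 other mice of these groups gave 0. Of 4 mural markers, Rgs5 and Notch3 were called lower in the same comparison, at -2.32 (SE 0.31) and -1.35 (SE 0.35), and the mural sum was 504 to 762 CPM in control and 150 to 276 CPM in Jag antibody mice. At 7 d without hormone the mural sum was 307 to 787 CPM in control and 121 to 234 CPM in Jag antibody mice, with a members' median of 0.06. No marker on the other lists was called under hormone. Negative medians included -0.19 for macrophage, -1.24 for T cell and -1.82 for muscle fibre markers. Medians were positive for neutrophil (1.4), neutrophil precursor (0.32), erythroid (0.3) and brown adipocyte markers (0.17). The part of the mural and other cells in the result was not tested.

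The Jag antibody mice with hormone were spread wider than the control mice with hormone. The mean log2 CPM over the members, Ube2c left out, was 1.38, 2.62, 0.97, 2.20 and 1.64 in mice 6 to 10, compared with 2.41, 2.35, 2.83, 3.16 and 3.11 in control mice 1 to 5. Mouse 7 lay within the range of the control mice and the other 4 below it, mice 6, 8 and 10 furthest, with SDs of 0.65 and 0.38. The mean log2 CPM of 6 macrophage markers in the same Jag antibody mice was 6.13, 7.56, 5.62, 6.64 and 6.08, also highest in mice 7 and 9, and its part in the spread was not tested. Leaving out mouse 7 lowered the number of genes called with hormone in Jag antibody mice from 28 to 16, while Mki67 remained called at 3.00 on the log2 scale.

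**Figure D3:**
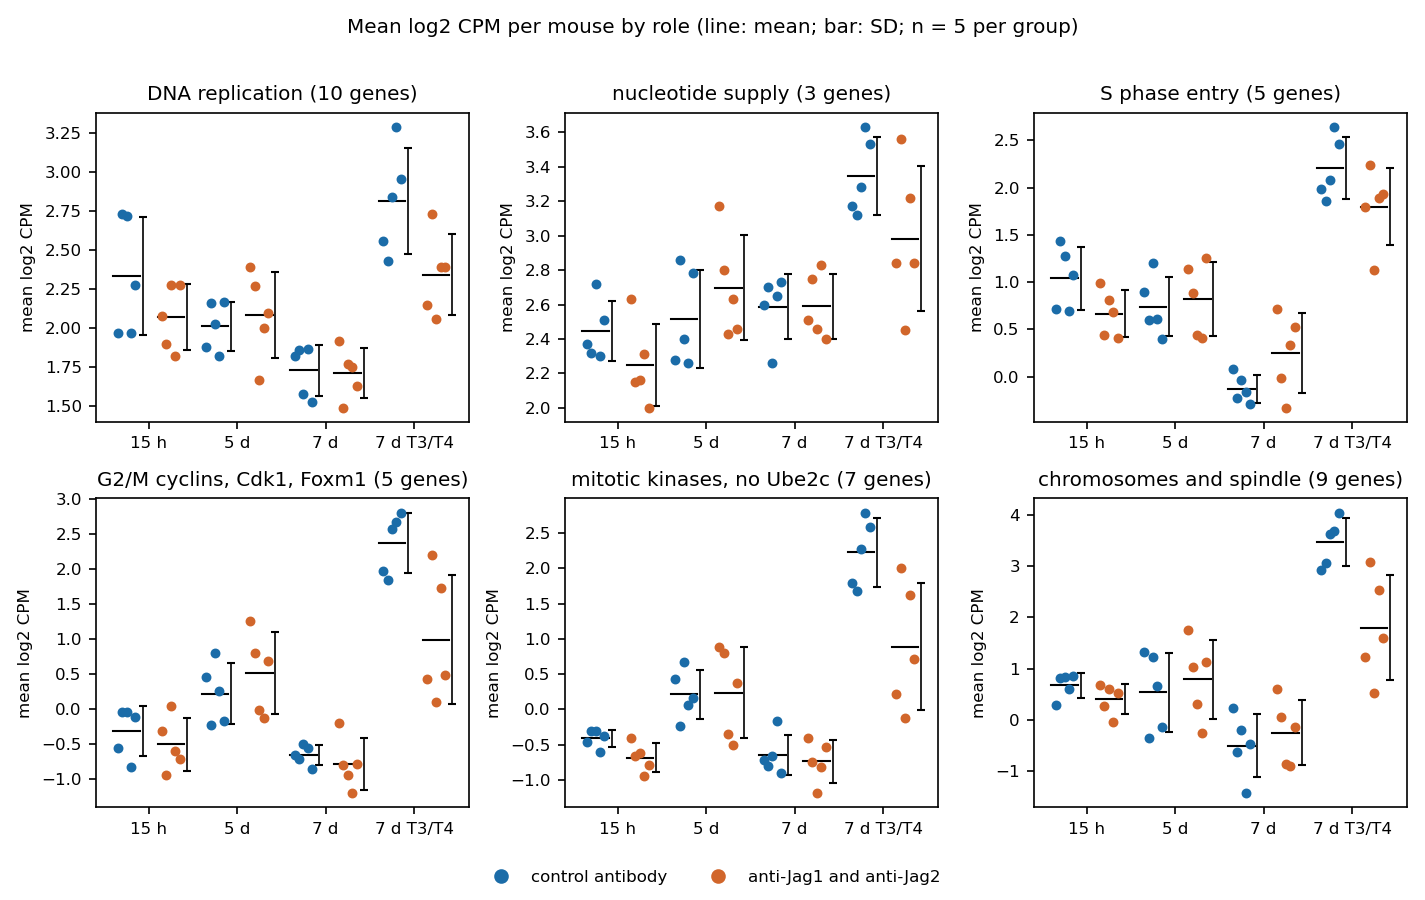
Mean log2 CPM over the genes of each role in each mouse (points), blue for control antibody and orange for anti-Jag1 and anti-Jag2, with the group mean as a line and the SD as a bar (n = 5, axes not starting at 0, Ube2c left out of the mitotic kinases). In the panel of chromosomes and spindle, as in that of mitotic kinases, the Jag antibody mice with hormone are spread wider than the control mice with hormone.

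Whether the hormone effect itself differed between antibodies was tested as an interaction at 7 d. The interaction was negative for 34 of the 40 genes, with a median of -1.0 compared with -0.07 over all tested genes, and none was called in edgeR, against 0.00586% of all tested genes called. At an unadjusted p under 0.05, 17 of the 40 passed, compared with 2103 of the 17079 tested genes. DESeq2 called Bub1b, and limma on log2(FPKM + 1) called 10 genes lower (0.17% of all tested genes). Bub1b had the value furthest from 0 relative to its error, -2.06 (SE 0.43, adjusted p = 0.232, edgeR). The 9 genes of chromosomes and the spindle were between -0.96 and -2.12, while Uhrf1 gave -0.17 (SE 0.45) and Ccne1 0.02 (SE 0.45). The interaction and the comparisons above share mice, so the values describe the same libraries.

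**Figure D4:**
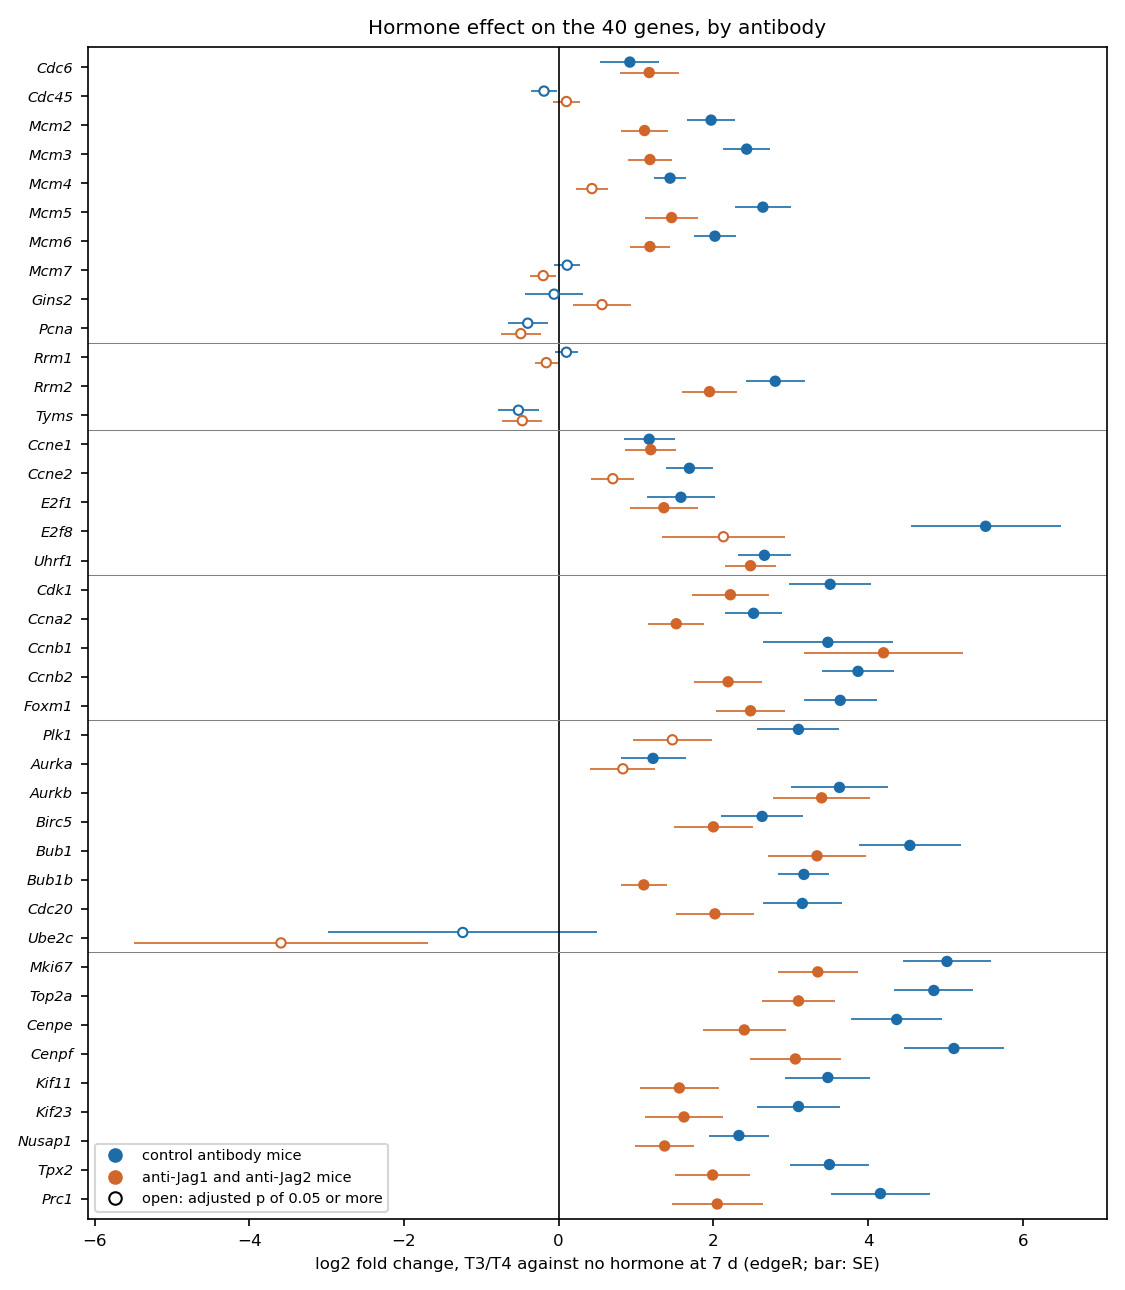
Log2 fold change with hormone at 7 d for each of the 40 genes (points, edgeR) with its SE (bars), in control mice (blue) and Jag antibody mice (orange), filled where the adjusted p is under 0.05. In 34 of the 40 rows the control value is the larger, and Cdc45, Mcm7, Gins2, Pcna, Rrm1, Tyms and Ube2c are open in both.

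Without hormone, the antibody left these genes largely within the spread between mice. At 15 h none was called (edgeR, DESeq2 none), against 1.14% of all tested genes, and the median was -0.25 with 33 of 40 negative. An unadjusted p under 0.05 was found for 3 members, compared with 2052 of the 17079 tested genes. At the same time the median over 6 macrophage markers was -1.36, with 1 called lower, and that over 5 neutrophil markers -2.79, with none called. The macrophage sum was 382 to 3220 CPM in control and 270 to 566 CPM in Jag antibody mice, and with the macrophage score as a covariate the members' median was 0.13. Medians were positive for B cell (1.71), T cell (1.38), Schwann cell (0.83), brown adipocyte (0.45), adipose progenitor (0.32) and erythroid markers (0.27). They were negative for muscle fibre (-1.44), muscle stem cell (-0.8), mural (-0.54), neutrophil precursor (-0.07) and endothelial markers (-0.01). The part of any of these cells in the members' values was not tested. At 7 d none was called in edgeR, against 2.5% of all tested genes, with a median of 0.06. An unadjusted p under 0.05 was found for 5 members, compared with 3504 of the 17079 tested genes. DESeq2 called Bub1b and Ccne2 higher, with 386 of the 17079 tested genes called higher. At 5 d, Mcm7 was called higher, against 2.09% of all tested genes, and Aurka and Ube2c lower, against 5.93%. Both counts are near those shares, which is no result about the members as a set. Mcm7 was at 4.10, 6.37, 5.91, 5.23 and 6.04 CPM in control mice and at 10.2, 9.14, 5.91, 8.57 and 6.87 CPM in Jag antibody mice, a difference of 0.56 on the log2 scale (SE 0.17, adjusted p = 0.0399, edgeR). The Mcm7 call was lost in 14 of 20 other fits, among them 8 of the 10 that left out a mouse. Aurka was at 1.92, 1.81, 2.72, 2.70 and 14.9 CPM in control mice and at 2.57, 1.74, 1.11, 1.69 and 1.84 CPM in Jag antibody mice. Its call at -1.40 (SE 0.42, adjusted p = 0.0341, edgeR) was lost in 13 of 20 other fits, among them 5 of the 10 that left out a mouse. Without control mouse 5 the value was -0.40 and was not called. The library of that mouse is one of the 4 with a low length slope, at -0.453.

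Bub1b, picked for this pattern, differed in opposite directions at 15 h and at 7 d. At 15 h it was at 2.87, 2.79, 2.74, 2.79 and 2.22 CPM in control and at 1.72, 1.71, 1.57, 1.17 and 1.22 CPM in Jag antibody mice, and the antibody mice were all lower. At 7 d the 5 Jag antibody mice were all higher than the control mice, with 1.72, 1.5, 1.95, 1.79 and 3.25 CPM compared with 1.01, 1.32, 1.48, 0.253 and 0.765 CPM. The log2 fold changes were -0.86 and 1.05, neither of which was called, and the difference between the times was not tested. Without overlap, 2 of the 40 members were lower at 15 h and 2 were higher at 7 d. The share of all tested genes without overlap was not counted at these times. Neither these counts nor the Bub1b pattern can be set against it, so they are no result about the members.

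Over time in control mice, the mean log2 CPM over the members, Ube2c left out, was 0.96 ± 0.26 at 15 h, 1.00 ± 0.28 at 5 d and 0.31 ± 0.13 at 7 d (SD, n = 5). From 5 d to 7 d, 10 of the 40 were called lower, against 4.42% of all tested genes. Cdc45 and Rrm1 were called higher, against 4.71%, a count near that share. The lower ones were Mcm2, Mcm3, Mcm4, Mcm5, Rrm2, Ccne2, Uhrf1, Bub1b, Mki67 and Top2a, with log2 fold changes from -0.64 for Mcm4 to -1.83 for Top2a. Top2a was at 5.75, 1.76, 5.16, 2.70 and 3.02 CPM at 5 d, above the 0.253 to 1.65 CPM at 7 d in every mouse. Over the same step 4 of 6 macrophage markers (median -1.68) and 5 of 6 adipose progenitor markers (median -1.27) were called lower, their sums going from 482 to 924 CPM to 150 to 353 CPM and from 477 to 1000 CPM to 359 to 498 CPM. With the macrophage score as a covariate 1 of the 12 calls was made and with the muscle score 2. From 15 h to 5 d, Mcm6, Pcna, Ccne2 and Mcm4 fell, against 20.1% of all tested genes called lower, and Cdc20 and Aurka rose, against 16.2%. Both counts are below those shares, which is no result about the members as a set. Mcm6 fell from 8.06 to 23.1 CPM at 15 h to 4.74 to 7.13 CPM at 5 d, by 1.24 (SE 0.26) on the log2 scale. The value of Ccne2 was -0.90 (SE 0.28) and turned to 0.04 with length and GC offsets and to 0.08 with offsets and the replicate block. The call of Mcm4 at -0.60 was lost in 12 of 22 other fits. The rise of Aurka, 1.72 (SE 0.43), was 0.75 and not called without control mouse 5 at 5 d. Without control mouse 2 at 7 d, the genes called from 5 d to 7 d went from 12 to 2. When only the 2 groups of a comparison were fitted, in place of all 8 groups, no member was called in either. The reason was not tested.

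In Jag antibody mice, Cdk1, Birc5 and Cenpf rose from 15 h to 5 d and fell from 5 d to 7 d. From 15 h to 5 d, 7 genes rose, against 8.22% of all tested genes called higher and none against 6.24% called lower, namely Mcm7, Rrm2, Cdk1, Ccnb2, Birc5, Bub1b and Cenpf. From 5 d to 7 d, 7 fell, against 1.28% of all tested genes called lower and none against 2.01% called higher, namely Uhrf1, Cdk1, Ccnb1, Aurkb, Birc5, Mki67 and Cenpf. Cdk1 was at 1.10, 0.881, 1.51, 0.845 and 0.637 CPM at 15 h, at 8.82, 7.08, 1.20, 1.44 and 3.28 CPM at 5 d and at 2.54, 0.668, 0.516, 0.759 and 0.775 CPM at 7 d. The high values at 5 d came from mice 6 and 7 and the other 3 mice were lower. Cdk1 rose by 2.13 (SE 0.50) and then fell by 2.03 (SE 0.49) on the log2 scale. Without mouse 6 at 5 d, the genes called from 5 d to 7 d went from 7 to 1. The times were compared within each antibody, and no difference between antibodies in the time course was tested.

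Ube2c, the ubiquitin-conjugating enzyme of the ligase that ends mitosis, gave values in this tissue that are uncertain. Its counts ran from 4 to 33678, and it was at 23.2, 8.72, 285, 202 and 2830 CPM in control mice at 5 d and at 5.03, 4.72, 1.15, 1.28 and 1.87 CPM in Jag antibody mice, which gave the called log2 fold change of -7.91 (SE 2.33, adjusted p = 0.0333, edgeR). It shares 592 exonic bases, 22.8% of its exons, with Tnnc2, the troponin C of fast skeletal muscle, on the opposite strand. Ube2c followed Tnnc2 over the 40 libraries (Pearson r = 0.96 on log2 CPM) and the muscle score (r = 0.93), and whether the counting used the strand is not given in the sources used here. Without strand, reads of the shared bases cannot be assigned to either gene. With the muscle score as a covariate no member was called at 5 d.

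**Figure D5:**
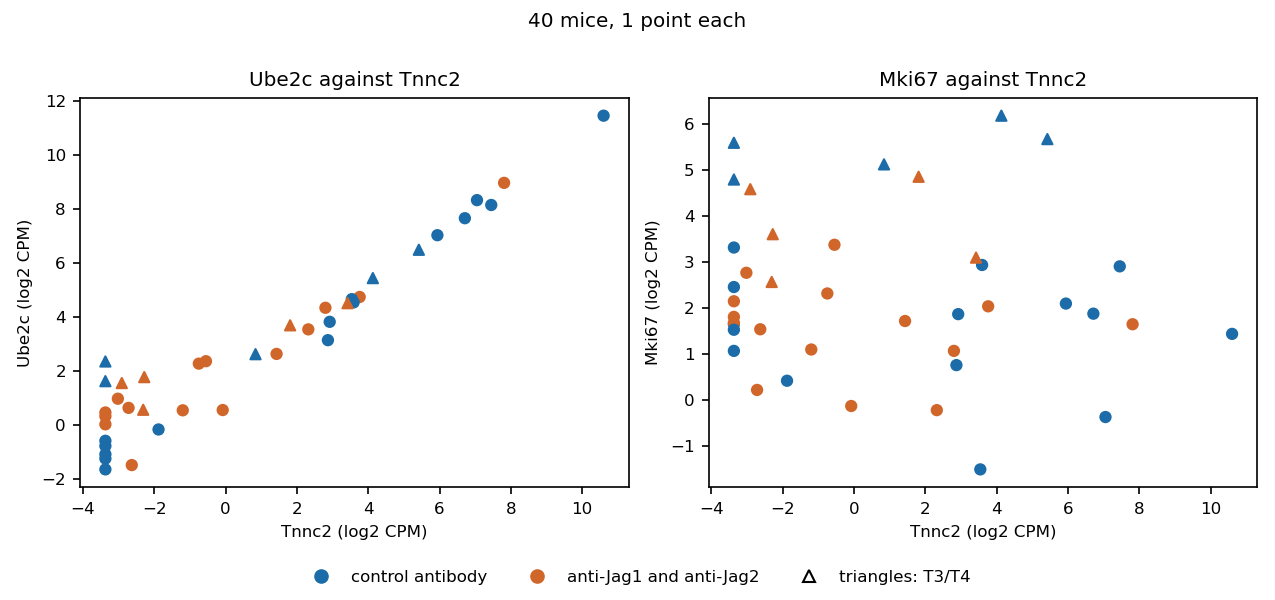
Log2 CPM of Ube2c (left) and Mki67 (right) against that of Tnnc2 in the 40 mice, 1 point each, blue for control antibody, orange for anti-Jag1 and anti-Jag2, triangles for hormone. Ube2c lies along a line with Tnnc2 (r = 0.96 over 40 libraries), while the Mki67 values with hormone lie high over the range of Tnnc2.

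Other members share exons with neighbours too. Of the 7 not called with hormone, Cdc45 shares 209 bases with Ufd1, Mcm7 shares 64 with Cops6 and 321 with Ap4m1, and Gins2 shares 2758 bases, 67.3% of its exons, with Gse1, all on the opposite strand. Their median counts, 173, 117 and 60, were below those of Ufd1, Cops6 and Gse1 at 1671, 2454 and 209. Of the 33 called, Ccne2, Ccna2, Cdc20 and Prc1 share exons with a gene of at least 100 median counts. The values of these genes are therefore uncertain to the extent of the overlap. No such partner was found for Pcna, Rrm1 and Tyms.

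Per kilobase of exon, the order of the members changed with hormone. In control mice at 7 d, Ube2c aside, the highest levels were 3.64 ± 1.17 CPM per kb for Rrm1 and 2.76 ± 0.301 for Cdc45 (SD, n = 5), which do not differ beyond their spread, then 1.40 ± 0.220 for Mcm4 and 1.19 ± 0.351 for Pcna. With hormone, Mki67 went from rank 30 to rank 2 of 40, Ube2c being counted as rank 1 in both, and stood at 4.64 ± 1.72 CPM per kb, followed by Mcm6 at 4.07 ± 0.919, Rrm1 at 3.91 ± 0.190, Mcm4 at 3.81 ± 0.556 and Ccnb2 at 3.79 ± 1.39 (SD, n = 5), none apart from its neighbour by more than the SD. Ccnb1 was lowest at 0.148 ± 0.0628. The 7 genes not called with hormone had a median log2 CPM of 2.58 compared with 0.99 for the 33 called. Median exonic lengths were 4097 and 4259 bases.

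Genes of the same processes outside the 40 were counted from further lists. Over all tested genes, hormone gave 20.3% called higher and 22.9% lower in control mice, and 4.29% and 5.21% in Jag antibody mice. Of 29 tested replication genes, 16 rose and 3 fell with hormone in control mice and 6 rose and 1 fell in Jag antibody mice; of 44 tested mitotic genes, 38 rose and 2 fell, and 29 rose and 1 fell. The replication checkpoint mediator Clspn rose by 4.98 (SE 0.57) in control and 2.83 (SE 0.51) in Jag antibody mice, and Hmmr, a spindle protein, by 5.55 (SE 0.73) and 2.63 (SE 0.61). Tk1, which salvages thymidine, rose by 3.18 (SE 0.55) in control mice and gave 0.69 (SE 0.49, adjusted p = 0.368, edgeR) in Jag antibody mice. Brca1, a DNA repair gene, rose by 3.77 (SE 0.67) in control mice and gave 1.77 (SE 0.60, adjusted p = 0.0542, edgeR) in Jag antibody mice. Pbk, a mitotic kinase, rose by 5.19 (SE 0.71) and 2.18 (SE 0.56). Cdc25c, a phosphatase that activates Cdk1, rose by 5.00 (SE 0.99) in control mice and gave 2.24 (SE 0.87, adjusted p = 0.0939, edgeR) in Jag antibody mice.

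Lists of genes that act before S phase are small, and the shares of all tested genes called with hormone, 20.3% higher and 22.9% lower in control and 4.29% and 5.21% in Jag antibody mice, stand beside them. Of 7 G1 cyclins and kinases, 4 rose in control mice and 1, Ccnd1, in Jag antibody mice. Ccnd1, the D cyclin that answers to growth signals, rose by 2.38 (SE 0.38) and 1.96 (SE 0.37). Ccnd2, another D cyclin, rose by 0.96 (SE 0.38) in control mice and gave -0.45 (SE 0.38) in Jag antibody mice, and Cdc25a, a phosphatase that activates Cdk2, rose by 0.57 (SE 0.21) and gave 0.26 (SE 0.21). Among 6 inhibitors of cyclin-dependent kinases, Cdkn2b fell by 2.29 (SE 0.36) in control and by 1.83 (SE 0.37) in Jag antibody mice, while Cdkn2c fell by 0.86 (SE 0.23) and Cdkn1b rose by 0.65 (SE 0.21) in control mice. Neither was called in Jag antibody mice, with -0.66 (SE 0.23) and 0.04 (SE 0.21). Of 16 pocket protein, E2F and MuvB genes, 6 rose and 1 fell in control mice, and 2 rose and 2 fell in Jag antibody mice. E2f7 rose by 2.81 (SE 0.37) and 1.79 (SE 0.35), E2f3 by 1.90 (SE 0.29) and 1.16 (SE 0.29) in control and Jag antibody mice, and Mybl2, the B-Myb factor, by 1.60 (SE 0.39) in control mice, with 0.41 (SE 0.37, not called) in Jag antibody mice. Of 10 p53 target genes, 2 rose and 1 fell in control mice, and 1 fell in Jag antibody mice, which with the shares over all tested genes is no result about this list. Zmat3 and Trp53inp1 rose by 1.06 (SE 0.20) and 1.22 (SE 0.43) and Btg2 fell by 1.26 (SE 0.48) in control mice, with 0.59 (SE 0.20), 0.82 (SE 0.42) and -0.19 (SE 0.47) in Jag antibody mice, none of them called.

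Some markers of cells other than adipocytes moved with hormone beside these genes. Of 6 macrophage markers, 5 rose in control mice and 2 in Jag antibody mice, against 20.3% and 4.29% of all tested genes, and none was at 0. Their summed level was 150 to 353 CPM in control mice at 7 d and 649 to 1280 CPM with hormone, and 214 to 848 and 474 to 2010 CPM in Jag antibody mice. With the macrophage score as a covariate, 25 members were called higher in control mice, against 12.8% of all tested genes, and Pcna lower, with a median of 1.5, Mki67 at 3.41 and E2f1 at -0.04. The same covariate left 12 called higher in Jag antibody mice, against 5.1% of all tested genes. Covariate and hormone are partly aligned, with macrophage scores of 3.94 to 5.05 without and 6.15 to 7.17 with hormone in control mice, so the adjusted values cannot be divided between them.

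The other marker lists are small too. Over all tested genes, 20.3% were called higher and 22.9% lower in control mice, and 4.29% and 5.21% in Jag antibody mice. Of 6 adipose progenitor markers, 3 rose in control and 2 in Jag antibody mice, Pdgfra by 2.08 (SE 0.25) and 0.99 (SE 0.25). Of 6 endothelial markers, 4 rose and Emcn fell in control mice, and Cdh5 rose in Jag antibody mice, and of 4 mural markers Pdgfrb and Notch3 rose in both. Summed levels went from 359 to 498 CPM to 495 to 1000 CPM for the progenitor, from 358 to 746 to 762 to 1060 CPM for the endothelial and from 307 to 787 to 504 to 762 CPM for the mural markers in control mice. Of the 7 brown adipocyte markers, Ucp1, Cidea, Adipoq and Fabp4 fell in control mice, Adipoq also in Jag antibody mice, and the sum went from 32200 to 69200 CPM to 10400 to 16900 CPM. Of 5 erythroid markers 2 fell in control mice, against 22.9% of all tested genes. No marker of muscle fibre, muscle stem cell, neutrophil, neutrophil precursor, B cell, T cell or Schwann cell was called with hormone in either. The part of these cell types in the rise of the cell cycle genes was not tested.

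The length slope also moved with hormone. It was -0.542 to -0.0593 in control mice at 7 d and 0.0407 to 0.246 with hormone. In Jag antibody mice it was -0.159 to 0.0256 without and 0.04 to 0.188 with hormone, so the groups did not overlap with either antibody. Without the 4 libraries below -0.25, 33 members were still called higher in control mice, Mki67 at 4.70. With length and GC offsets, 32 were called higher, against 13.3% of all tested genes, and Rrm1 and Tyms lower, while over all tested genes the calls went from 3463 higher and 3915 lower to 2280 and 4809.

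The 10 genes outside the set whose log2 CPM was most like the members' mean over the 40 libraries were Dlgap5, Shcbp1, Neil3, Knstrn, Kntc1, Iqgap3, Cenpi, Kif14, Ccnf and Nek2, with Pearson r from 0.879 to 0.924. These libraries share group and depth differences, and within groups the same r was 0.525 to 0.824. Among the members over the 40 libraries, Top2a followed the mean of the others most closely (r = 0.96), then Mki67 and Tpx2 (r = 0.94 each). Tyms (r = -0.28), Pcna (r = -0.19), Mcm7 (r = 0.04) and Cdc45 (r = 0.05) did not follow it there. Within groups, r was 0.84 for Top2a, 0.72 for Mki67 and 0.81 for Tpx2. It was 0.01 for Tyms, 0.32 for Pcna, 0.35 for Mcm7 and -0.18 for Cdc45. Uhrf1 went from 0.64 over all libraries to -0.06 within groups, Cdc6 from 0.51 to -0.13 and Ccne2 from 0.38 to 0.03.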

How the data were processed

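Bulk RNA from brown fat of 40 mice was read as single-end 50 bp reads, per the labels' protocols. The authors deposited whole-number counts per Ensembl gene and an FPKM table of the same genes and mice. GSNAP and limma are named in the submitters' processing notes, with no role. The build, annotation, counting program and use of strand are not given in the sources used here. From the values, each deposited FPKM is the count divided by a library factor and a gene length (100% of values within 0.001 log2 over 10351 genes).

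Groups came from the labels. Symbols matched 52403 of 52636 identifiers, and GENCODE M21 (GRCm38, an assumption about the build) gave coordinates, exonic lengths and base composition. Counts were fitted with edgeR 4.0.16 in R 4.3.3 (filterByExpr, TMM, robust quasi-likelihood F test, 8 group means over 40 libraries, Benjamini-Hochberg at 0.05) in 10 comparisons and 1 interaction. CPM values use TMM-scaled totals, and log2 CPM a prior count of 2. The members, the pathway and marker lists and the tests were chosen with earlier results of these data known. All 40 members are named. From each pathway list, up to 3 called genes with the largest change with hormone in control mice are named, with their Jag antibody values. The promoters shown are those of the 4 members with the largest such change. The genes most like the members are the 10 of highest r.

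The muscle, myeloid and macrophage scores are mean log2 CPM of marker genes. Alternatives were DESeq2 1.42.0, RLE size factors, no low-count filter, only the compared groups, muscle and myeloid scores as covariates, limma 3.58.1 on log2(FPKM + 1), length and GC offsets, a replicate block and omission of each mouse in turn. The macrophage covariate and leaving out the 4 libraries with a length slope below -0.25 were chosen after seeing the data. On simulated counts for hormone in control mice, 200 of 16807 genes were changed, 100 by 1 and 100 by 2 on the log2 scale. Of these, edgeR recovered 48% and 89%, with 4.2% of its calls false. In the data, 7378 of the 17079 tested genes were called for this comparison, and recovery with so many genes changed was not tested. Recovery for genes with few counts, such as Ccnb1 and E2f8, was not tested separately.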

Additional observations from a re-analysis of the deposited data

Results flagged for a closer look

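Within groups of 5 mice, 184 sets of values (23 measures in 8 groups) were searched for a mouse far from the other 4. Chance alone gives about 5% of such sets, and 5 were found. Control mouse 3 at 7 d had a mean log2 CPM of 2.26 over the nucleotide supply genes, the next lowest mouse having 2.60. Control mouse 1 at 7 d had -1.46 log2 CPM of E2f8, from 5 counts, where the other 4 mice had no count. Control mouse 5 at 15 h had 1.21 log2 CPM of Bub1b, below the next at 1.5. Jag antibody mouse 6 at 7 d had 1.40 log2 CPM of Cdk1, above the next at -0.20. Jag antibody mouse 8 at 7 d had -2.91 log2 CPM of Ccnb1, from 1 count, where the others had none.

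For Bub1b the antibody difference had opposite signs in all mice at 2 times, with log2 fold changes of -0.86 at 15 h and 1.05 at 7 d, a gap of 1.90. The difference between these times was not tested.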

How the results depend on the processing

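Of the 33 members called with hormone in control mice, 25 were called in every fit run, of the 28 in Jag antibody mice 8 were, and of the 7 from 15 h to 5 d in Jag antibody mice 3 were; no call of the other comparisons held in all. Counts of members called follow, with the number called over all tested genes in brackets where it is at hand. That number also changed with the setting. For most settings, and for the omission of mice below, it is not given here. The counts therefore show how calls move and are not read as results about the members. DESeq2 gave 2 for the antibody at 7 d (835, compared with 427 in edgeR) and 12 for the antibody with hormone (442, compared with 194). It gave 1 for the interaction (9, compared with 1) and 13 from 5 d to 7 d in Jag antibody mice (1331, compared with 562). RLE size factors gave 0 for the antibody with hormone (180). Without a filter on low counts, there were 0 for the antibody at 5 d, 0 for the antibody with hormone, 5 from 5 d to 7 d in control and 3 in Jag antibody mice. With only the compared groups, there were 1 for the antibody at 5 d, 3 with hormone, and 0 from 15 h to 5 d in control mice and from 5 d to 7 d in control and Jag antibody mice. The muscle score left 0 for the antibody at 5 d and 2 from 5 d to 7 d in control mice, and the myeloid score gave 1 at 5 d, 1 at 7 d and 10 with hormone. With limma on FPKM there were 1 for the antibody at 5 d, 24 with hormone, 15 for hormone in Jag antibody mice, 10 for the interaction, 1 from 5 d to 7 d in control mice, and 3 and 0 for the time steps in Jag antibody mice. Length and GC offsets gave 0 for the antibody with hormone (299) and 11 from 5 d to 7 d in Jag antibody mice (776). The macrophage score gave 8 for the antibody with hormone, 12 for hormone in Jag antibody mice, and 10 and 1 for the time steps in control mice. Without the 4 libraries poor in long transcripts there were 0 for the antibody at 5 d, 5 with hormone, 3 and 2 for the time steps in control and 12 and 11 in Jag antibody mice. The sign turned in 3 fits: Ccne2 from 15 h to 5 d in control mice was 0.04 with offsets and 0.08 with offsets and the replicate block, and E2f1 with hormone in control mice was -0.04 with the macrophage score. The cause was not tested.

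Leaving out each mouse in turn gave 0 to 0 members for the antibody at 15 h, 0 to 3 at 5 d, 0 to 2 at 7 d and 0 to 8 with hormone, 32 to 33 for hormone in control and 16 to 29 in Jag antibody mice, 0 to 0 for the interaction, 4 to 8 and 2 to 15 for the time steps in control mice and 4 to 10 and 1 to 9 in Jag antibody mice. Same-numbered mice are different animals whose deviations correlated at means of 0.082 to 0.195, with single pairs from -0.364 to 0.668. For Jag antibody mice at 5 d against 15 h, 4 of 5 mice correlated best with their own number, and in the other comparisons 1 or 2. Whether same-numbered mice had anything in common was not tested. The replicate block gave 33 and 28 members with hormone in control and Jag antibody mice, 0 for the interaction, 8 and 10 over time in control and 5 and 7 in Jag antibody mice; the antibody groups share no numbers. With offsets, calls over all tested genes moved from 357 higher and 1012 lower to 1321 and 1001 for the antibody at 5 d. Genes with few counts, such as Ccnb1 and E2f8, limit what depth can show.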
